A study of Homo sapiens with 9 samples.

Results

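ADGRG1, FAM30A, ATP8B4 and TLL1 are 4 genes with higher signals in both knockout clones of the Hodgkin lymphoma line L-1236 than in its control cells. In the clones LTA, the gene of lymphotoxin alpha, was targeted with Cas9. The 4 genes were picked by their symbols for rises in both clones from 20893 transcript clusters on the human Clariom S array. Each was read by 1 transcript cluster (TC1600008005.hg.1, TC1400010707.hg.1, TC1500009377.hg.1 and TC0400009234.hg.1, in the same order). Because the values against control chose them, those values are a description and no test of them is given. In the clones averaged they held ranks 4, 11, 12 and 13 among all transcript clusters by the size of the rise, so that only 13 transcript clusters (0.0622%) were raised by at least as much as TLL1.

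The study had 3 groups of 3 arrays. Control cells (v2) carried the lentiviral Cas9 vector, spelled lentiCRIPSPR_v2 in the labels, with no LTA guide named for them, and their titles read wild type. Clone g2_1 had a guide in that vector for exon 2 of LTA, and g3_4 a guide for exon 4. Each knockout group is 1 single-cell clone, so a difference that comes from the loss of LTA and one that belongs to the clone cannot be told apart within a clone, and both clones were set against the same control arrays. Before the experiment the clones grew in L-1236 conditioned medium, and all cells then spent 72 h in normal medium. Whether control cells had conditioned medium before, or were a single-cell clone too, is not clear from the labels. Nor do they name separate cultures behind the 3 arrays of a group, so every p-value measures a spread between arrays that may be technical. These are bulk RNA samples, in which a change in the share of cells with a gene's RNA and a change in RNA per cell cannot be told apart.

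ADGRG1 encodes an adhesion G protein-coupled receptor, also called GPR56, that binds extracellular matrix through its long outer part and signals inside the cell to the small GTPase RHOA. It marks cytotoxic lymphocytes and blood stem cells. FAM30A is a long non-coding RNA gene, formerly KIAA0125, within the immunoglobulin heavy chain locus, and its RNA is known from B cells and blood progenitors. ATP8B4 encodes a P4-type ATPase, one of the flippases that move phospholipids from the outer to the inner leaflet of membranes, and TLL1 encodes tolloid-like 1, a secreted metalloprotease of the BMP1 family that trims procollagens and cleaves chordin, an inhibitor of bone morphogenetic proteins (BMPs). The genes lie on 4 chromosomes, 16, 14, 15 and 4.

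The start regions of the 4 genes are shown as a description. The genes were chosen for a shared rise, and whether they share a regulator was not tested. Each window runs from 250 bases before to 50 bases after a start site of the RefSeq annotation (GRCh38.p14), 5′ to 3′, and capitals mark matches to the 12 motifs searched on both strands. For ADGRG1, which has 3 such windows, the one with most matches is given.
ADGRG1 (chr16:57628380-57628679, plus strand): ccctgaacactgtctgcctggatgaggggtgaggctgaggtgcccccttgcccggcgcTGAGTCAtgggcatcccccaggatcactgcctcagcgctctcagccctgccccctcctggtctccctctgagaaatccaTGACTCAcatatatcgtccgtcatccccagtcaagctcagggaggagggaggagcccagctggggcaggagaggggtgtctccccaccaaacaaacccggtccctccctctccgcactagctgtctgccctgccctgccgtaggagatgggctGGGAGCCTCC
FAM30A (chr14:105917729-105918028, plus strand): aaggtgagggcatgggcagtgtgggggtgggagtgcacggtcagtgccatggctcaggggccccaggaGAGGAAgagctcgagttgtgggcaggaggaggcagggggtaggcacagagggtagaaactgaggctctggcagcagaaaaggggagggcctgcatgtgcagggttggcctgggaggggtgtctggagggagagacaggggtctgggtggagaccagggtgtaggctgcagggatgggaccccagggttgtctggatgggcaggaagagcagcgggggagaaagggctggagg
ATP8B4 (chr15:50119184-50119483, minus strand): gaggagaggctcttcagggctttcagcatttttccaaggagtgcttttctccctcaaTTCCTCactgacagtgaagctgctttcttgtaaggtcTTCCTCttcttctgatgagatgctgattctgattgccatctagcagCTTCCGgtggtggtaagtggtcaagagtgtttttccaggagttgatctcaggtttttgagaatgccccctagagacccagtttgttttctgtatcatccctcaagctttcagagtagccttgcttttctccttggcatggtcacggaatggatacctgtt
TLL1 (chr4:165872987-165873286, plus strand): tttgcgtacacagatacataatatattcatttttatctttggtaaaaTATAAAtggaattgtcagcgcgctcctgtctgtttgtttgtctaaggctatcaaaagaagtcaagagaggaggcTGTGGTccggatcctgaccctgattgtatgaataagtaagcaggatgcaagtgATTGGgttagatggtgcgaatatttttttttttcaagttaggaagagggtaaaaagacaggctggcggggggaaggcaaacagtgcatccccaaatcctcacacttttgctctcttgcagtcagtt
The capitals in ADGRG1 are 2 AP-1 motifs (TGANTCA), at positions -192 and -113 from the start site, and 1 match to the NF-kB motif at the end of the window. FAM30A holds 1 PU.1 motif (GAGGAA). ATP8B4 holds 2 PU.1 motifs and 1 ETS motif (CGGAAG), all read on the opposite strand. TLL1 holds a TATA box motif (TATAAA) far from the start site at -203, a RUNX motif (TGTGGT) and a CCAAT box motif (CCAAT) on the opposite strand. Another window of ADGRG1 holds the GAS motif (TTCNNNGAA), and the remaining one holds none. No motif was found in more than 2 of the 6 windows. Among all 35116 RefSeq windows of this length, 27.9% hold the PU.1 motif, 11.3% the NF-kB motif, 7.71% the AP-1 motif, 19.5% the ETS motif, 13.1% the RUNX motif, 34.6% the CCAAT box, 11.5% the TATA box and 7.66% the GAS motif. The GC box (GGGCGG), which 45.0% of windows hold, was in none of the 6 windows, nor were the E-box (CACGTG, 7.26%), the CRE motif (TGACGT, 7.98%) and the octamer motif (TGCAAAT, 4.20%). The 6 windows hold 2 to 8 CpG dinucleotides each, against a median of 14 over all windows. A match describes the letters only.

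LTA itself had values of 11.58, 11.07 and 11.08 on the control arrays, of 7.97, 7.53 and 7.11 in g2_1 and of 6.94, 7.25 and 6.61 in g3_4 (log2 RMA signals), all 6 clone arrays below all control arrays. Where the probes lie relative to the targeted exons is not given in the sources used here. The line showed TNFRSF8, which encodes the Hodgkin marker CD30, at a mean of 11.11 in controls, 11.89 in g2_1 and 11.81 in g3_4, and IRF4 at 11.83, 12.00 and 12.00, while the B cell gene MS4A1 was at 4.38, 4.39 and 4.40. The first quartile of an array lay at 4.62 to 4.66, so values near it are close to the floor of the array, where a fold change is understated.

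ADGRG1 had the largest change of the 4 in g2_1 and with the clones averaged, while in g3_4 that of FAM30A was about as large. Its signal was 4.40, 4.54 and 4.88 on control arrays 1 to 3, at or near the floor. It was 8.46, 7.27 and 7.82 in g2_1. In g3_4 it was 8.34, 7.33 and 7.09. No clone array overlapped a control array, and the lowest clone value lay 2.21 above the highest control value. The group means were 4.61 ± 0.25, 7.85 ± 0.60 and 7.59 ± 0.66 (SD, n = 3) in the order control, g2_1, g3_4, which is 9.47-fold higher in g2_1 (log2 3.24, moderated SE 0.34) and 7.89-fold higher in g3_4 (log2 2.98, SE 0.34). Array 1 was the highest of the clone arrays in both clones, as it was for 19.2% of all transcript clusters, and the SD of ADGRG1 was above that of 99.8% of transcript clusters in g2_1 and 99.9% in g3_4. The arrays numbered 1 had an RNA integrity number of 10 and the others of 9.5 to 9.6; the part of RNA quality in the value was not tested, and without the arrays numbered 1 the changes were 2.83 in g2_1 and 2.50 in g3_4.

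FAM30A had the largest difference between the clones of the 4 genes. Its signal was 4.83, 5.58 and 5.08 on the control arrays. It was 7.22, 6.69 and 7.24 in g2_1 and 8.18, 8.02 and 8.29 in g3_4. All arrays of g3_4 were above all arrays of g2_1, and these were above all control arrays, with 1.11 between the lowest clone and the highest control value. Means were 5.16 ± 0.38, 7.05 ± 0.31 and 8.16 ± 0.14 (SD, n = 3), or 3.70-fold higher than control in g2_1 (log2 1.89, SE 0.20) and 8.0-fold higher in g3_4 (log2 3.0, SE 0.20).

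ATP8B4 varied most among control cells. The control arrays read 4.95, 5.80 and 6.82, a range of 1.87, and the SD of 0.94 exceeded that of 99.5% of transcript clusters. The clone arrays lay close together, at 7.83, 8.09 and 8.12 in g2_1 and 8.18, 8.5 and 8.58 in g3_4. The groups did not overlap, but the gap to the highest control array was 1.01, the smallest of the 4 genes. Means were 5.86 ± 0.94, 8.01 ± 0.16 and 8.42 ± 0.21 (SD, n = 3), with log2 changes of 2.16 in g2_1 and 2.56 in g3_4 (SE 0.35 each), or 4.46-fold and 5.91-fold. Without control array 3, the highest of them, the changes were 2.64 and 3.05. Without control array 1, the lowest, they were 1.70 and 2.11.

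TLL1 was at 4.44, 5.25 and 5.35 on the control arrays, the first of these under the first quartile. It was at 6.54, 7.18 and 7.49 in g2_1, and at 7.41, 7.59 and 7.47 in g3_4. The lowest clone array, array 1 of g2_1, was 1.19 above the highest control array. Means were 5.01 ± 0.50, 7.07 ± 0.48 and 7.49 ± 0.09 (SD, n = 3), with changes of 2.06 in g2_1 and 2.48 in g3_4 (SE 0.26 each), or 4.16-fold and 5.57-fold. Like ATP8B4, TLL1 had its lowest value on array 1 in each of the 3 groups, as did 10.1% of all transcript clusters.

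**Figure D1:**
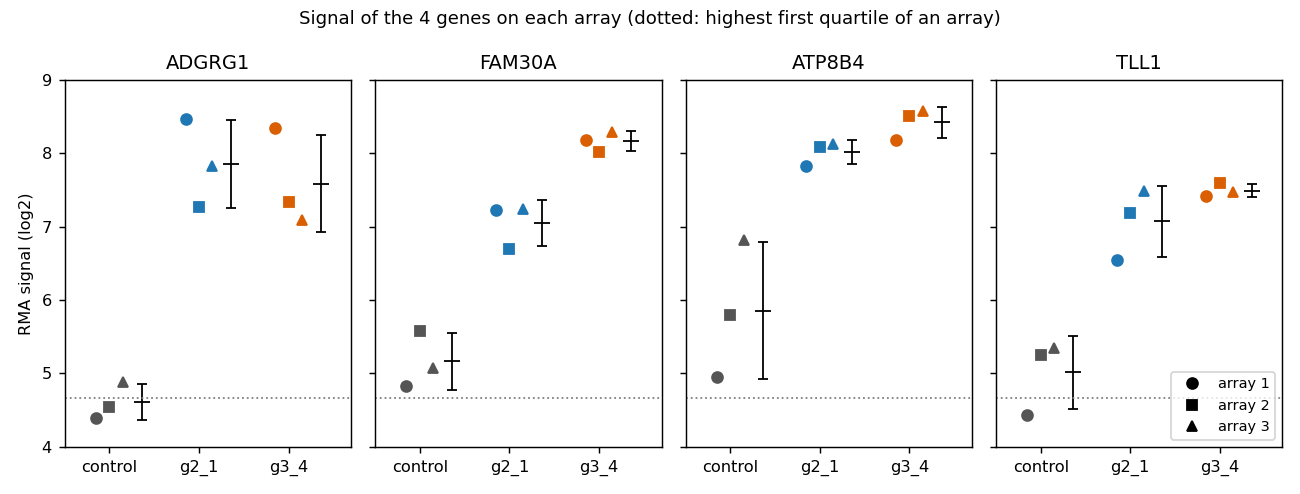
RMA signal (log2) of ADGRG1, FAM30A, ATP8B4 and TLL1 on each of the 9 arrays, with the marker shape giving the array number, the bars the mean and SD of 3 arrays, and the dotted line the highest first quartile of an array (4.66). The 6 clone arrays sit above the 3 control arrays in each panel, the control arrays of ATP8B4 spread from 4.95 to 6.82, and the arrays of g3_4 sit above those of g2_1 for FAM30A.

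All 4 genes thus had every clone array above every control array, which the choice of members makes likely and which held for 9.7% of all transcript clusters. A gap of at least 1 log2 unit between the groups was rarer, at 0.172%, or 36 transcript clusters, and the 4 genes are among them. The choice of members makes this likely too, so nothing is read from it. All 4 passed, in limma with Benjamini-Hochberg adjustment, an adjusted p under 0.05 and a log2 change of at least 1 in both clones, as 0.699% of transcript clusters did; since the same values chose the genes, nothing is read from that. Compared between arrays of the same number, the change ranged from 2.21 to 4.06 for ADGRG1, from 1.11 to 3.35 for FAM30A, from 1.30 to 3.23 for ATP8B4 and from 1.93 to 2.97 for TLL1. Control array 1 had the lowest control value for each of the 4 genes, as for 34.9% of transcript clusters. With arrays centred on their medians, the median change over all transcript clusters moved by 0.11, from 0.04 to 0.15, and the averaged changes of the 4 genes were 3.22, 2.56, 2.47 and 2.38.

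The difference between the clones was tested, since the genes were not chosen on it directly. The choice used the same clone arrays, however, and asking for a rise in both can favour genes that differ little between them. FAM30A was 2.16-fold lower in g2_1 than in g3_4 (log2 -1.11, SE 0.20, 95% interval -1.55 to -0.67). In limma the unadjusted p was 1.8e-04 and the adjusted p, over all transcript clusters, was 0.136, so the difference did not pass. Values of the clones do not overlap for FAM30A, as for 11.5% of transcript clusters. An exact permutation test of 3 against 3 arrays cannot go below p = 0.1. The call depended on the fit: in limma the adjusted p was 0.0309 without control array 1, 0.0423 in a fit of the clones alone and 0.0184 with array weights, and it ranged up to 0.641 over the alternatives.

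For the other genes the interval of the difference included 0. It was 0.26 (95% interval -0.48 to 1.01) for ADGRG1, -0.41 (-1.19 to 0.37) for ATP8B4 and -0.42 (-1.0 to 0.16) for TLL1, with a limma adjusted p of 0.997 for each. For each gene, differences between the bounds of its own interval are within the error of the arrays. Only 11 transcript clusters, 0.0526%, passed between the clones, and that number ran from 4 without array 2 of g2_1 to 45 without control array 1. With the array number as a block, which pairs the clones, 27 passed, and none of the 4 genes was among them (FAM30A adjusted p = 0.145 in limma).

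**Figure D2:**
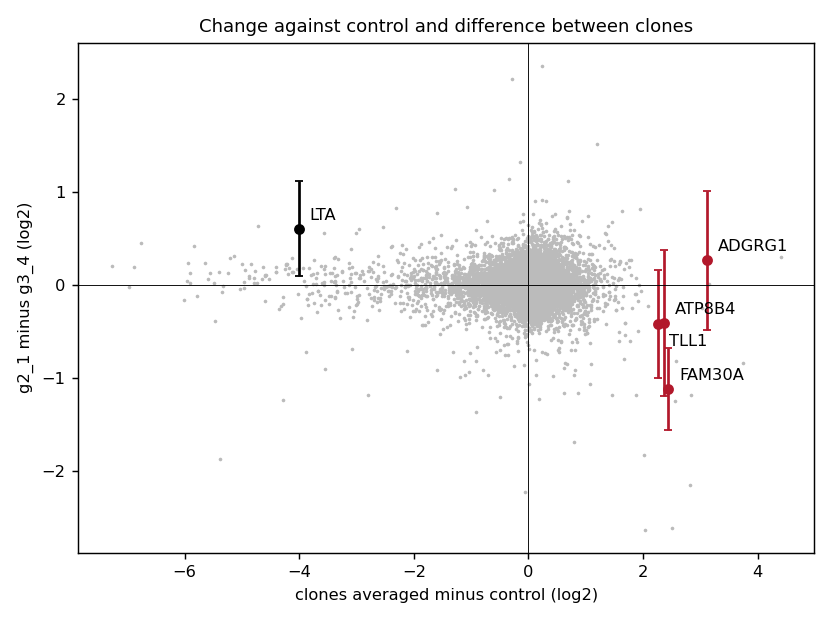
Each grey point is 1 of 20893 transcript clusters, with the log2 change of the clones averaged against control on the x axis and the log2 difference g2_1 minus g3_4 on the y axis; bars on the named genes are 95% intervals of the difference. FAM30A lies at -1.11 between the clones, and the intervals of ADGRG1, ATP8B4 and TLL1 include 0.

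The signals of the 4 genes over the 9 arrays share the step from control to clones on which they were chosen. Pearson's r over the 9 arrays was 0.97 between ATP8B4 and TLL1, 0.93 between FAM30A and TLL1, 0.90 between FAM30A and ATP8B4, and 0.87 between ADGRG1 and each of the others. Many other genes were closer to ADGRG1: the other members held ranks 260 to 289 by r with it, among the 2723 transcript clusters searched. By r with TLL1, ATP8B4 held rank 21 and FAM30A rank 130. TLL1 itself held rank 47 by r with ATP8B4 and rank 41 by r with FAM30A. Within the clones ADGRG1 was highest on array 1, and ATP8B4 and TLL1 were lowest there. Of 2723 named transcript clusters whose values ranged over at least 1 log2 unit, those most like ADGRG1 were LIMK1, a kinase that acts on actin filaments (r = 0.99, averaged change 0.76), TMEM65 (r = 0.99, 0.90) and the ankyrin gene ANK1 (r = 0.99, 1.04). Most like FAM30A were the biotinidase gene BTD (r = 0.99, 0.76), CRACDL (0.98, 0.74) and GNPTAB, an enzyme that tags lysosomal proteins (0.98, 1.35). Most like ATP8B4 were the kinase gene RPS6KA5 (r = 0.99, 1.77), LIN7A (0.99, 1.51) and the receptor gene GPR18 (0.99, 1.0), and most like TLL1 were HPGD, which breaks down prostaglandins (r = 0.99, 1.92), ATXN7L1 (0.99, 1.41) and SPSB1 (0.98, 0.85). The arrays are few and in groups, so these r values describe a shared pattern and carry no test.

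For gene families and pathways around the 4 genes, a rise or fall is called where each clone had a limma adjusted p under 0.05 and the sign was shared. The 4 genes are counted in their lists, although this contrast chose them. By that rule 935 transcript clusters rose (4.48%) and 1456 fell (6.97%), and the median change of the clones averaged was 0.04. After centring arrays on their median 8.37% rose and 5.62% fell, and risen ones made up 59.8% of these calls in place of 39.1%.

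Among 27 measured adhesion G protein-coupled receptors, ADGRG1 and ADGRD1 rose and 3 fell, with a median change of 0.00. Without ADGRG1, 1 of 26 rose. ADGRD1 averaged 8.13 ± 0.37 in controls, 9.28 ± 0.37 in g2_1 and 9.22 ± 0.51 in g3_4 (SD, n = 3), an averaged change of 1.13 (log2, SE 0.23); its call was lost without array 2 of g2_1, array 2 of g3_4 or control array 3 (limma adjusted p up to 0.0686). ADGRE5, which encodes the leukocyte antigen CD97, fell by 0.78 from 10.45 ± 0.06, CELSR2 fell by 0.74 and ADGRE2 fell by 0.57; the call of ADGRE2 was lost without array 1 of g3_4 (limma adjusted p = 0.0681). The measured relatives of ADGRG1 in the ADGRG group did not pass. ADGRG3, its neighbour on chromosome 16, had a change of 0.12 (SE 0.10) at 5.80 in control cells. ADGRG2, ADGRG4, ADGRG6 and ADGRG7 had changes from -0.14 to 0.16, and ADGRG5 was not among the measured genes. In this family 11 genes were under the first quartile on every array.

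Of 13 measured ligands, partners and transducers of ADGRG1, CD9 rose and 3 G protein genes fell, with a median of 0.09. CD9 encodes a tetraspanin, a kind of membrane protein that forms complexes with ADGRG1, and averaged 8.77 ± 0.82 in controls, 10.07 ± 0.07 in g2_1 and 10.08 ± 0.12 in g3_4 (SD, n = 3); its call was lost without array 3 of g2_1 or array 2 of g3_4 (limma adjusted p up to 0.0577). GNAQ fell by 1.47 from 9.55 ± 0.17, GNA11 fell by 0.97 and GNA12 fell by 0.57. The calls of GNA11 and GNA12 were lost without single arrays, for GNA11 array 1 or 3 of g2_1 or control array 2, and for GNA12 array 2 of either clone (limma adjusted p up to 0.0864 and 0.0704). The tetraspanin gene CD81 had a change of 0.09 (SE 0.12), GNA13 of -0.09 (SE 0.14), RHOA of 0.07 (SE 0.08) and the matrix ligand gene TGM2, a transglutaminase, of 0.12 (SE 0.13).

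Of 15 measured genes of P4-type ATPases and their subunits, ATP8B4 and ATP10D rose and ATP11A fell, with a median of 0.23 with ATP8B4 and 0.20 without it. Without ATP8B4, 1 of 14 rose. ATP11A, a flippase of the plasma membrane, averaged 7.21 ± 0.27 in controls, 5.97 ± 0.02 in g2_1 and 6.38 ± 0.35 in g3_4 (SD, n = 3), a fall in both that was kept under each alternative run. ATP10D had an averaged change of 0.82 (SE 0.18) that passed without array 1 of g3_4 or control array 2 and was lost without any other single array (limma adjusted p up to 0.144). The other members of the ATP8B group did not pass, with changes of -0.08 for ATP8B1, 0.23 for ATP8B2 and 0.34 for ATP8B3, and TMEM30A, the subunit that most flippases need to leave the endoplasmic reticulum, had a change of -0.02 (SE 0.09) at 9.82 in control cells. With arrays centred, ATP8B3, ATP10B and ATP11B also rose, which makes 5 of 15. Of 8 measured scramblase genes, whose products let phospholipids move both ways, XK fell by 0.96 and 0 rose; with arrays centred XKR8 rose too.

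Of 18 measured tolloid proteases, enhancers and substrates, TLL1, PCOLCE2 and GDF11 rose and 0 fell, with a median of 0.16. Without TLL1, 2 of 17 rose. PCOLCE2, which encodes an enhancer of procollagen cleavage by tolloid proteases, averaged 7.04 ± 0.20 in controls, 8.05 ± 0.05 in g2_1 and 8.11 ± 0.15 in g3_4 (SD, n = 3), and its call was kept under each alternative run. GDF11, a growth factor whose inactive precursor tolloid proteases cleave, had a change of 0.95 (SE 0.20); its call was lost without array 1 or 3 of g2_1 or control array 2 (limma adjusted p up to 0.110). The paralogs of TLL1 did not pass, BMP1 with a change of 0.27 (SE 0.09) and TLL2 of -0.07 (SE 0.11). Among substrates, CHRD had a change of 0.21 (SE 0.10), COL1A1 of -0.01 (SE 0.14), COL1A2 of 0.17 (SE 0.10) and LOX of 0.04 (SE 0.13) at 4.42 in control cells, near the floor.

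BMP signalling genes, downstream of the inhibitor that TLL1 cleaves, moved both ways, with 4 of 22 risen, 2 fallen and a median of 0.10. SMAD6, an inhibitor of BMP signalling, fell by 1.14 and the receptor gene BMPR1B fell by 1.68. Values of the risen genes were 0.83 for BMPR2, 0.56 for ACVR2B, 0.55 for SMAD7 and 0.54 for ACVR1. Each of these was lost without some single array: BMPR2 passed without control array 1 or 3, ACVR2B without control array 3, ACVR1 without array 1 of either clone or control array 3, and SMAD7 without array 1 or 2 of g2_1 or control array 2 or 3, and they were lost without any other (limma adjusted p up to 0.135). The BMP target genes ID1 and ID3 had changes of 0.08 and 0.17 (SE 0.11 each) and did not pass; with arrays centred ID4 rose too.

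ADGRG1 and FAM30A both belong to a published 17-gene score of leukaemia stem cells, and all 17 were measured. Of them 5 rose and 1 fell (29.4% and 5.88%), with a median of 0.09; without ADGRG1 and FAM30A, 3 of 15 rose. EMP1, which encodes an epithelial membrane protein, averaged 6.15 ± 0.60 in controls, 7.77 ± 0.14 in g2_1 and 7.51 ± 0.22 in g3_4 (SD, n = 3), and the cell cycle kinase gene CDK6 from 9.09 ± 0.11 to 9.63 ± 0.06 and 9.77 ± 0.02. SOCS2, a feedback inhibitor of cytokine signalling, had a change of 0.78 (SE 0.16), lost without any array of g3_4 or control array 2 (limma adjusted p up to 0.104). BEX3 fell by 3.11 from 7.82 ± 1.02 to 4.75 ± 0.16 and 4.67 ± 0.12, close to the floor. CD34, the gene that defines blood progenitors, was at 4.84 in controls and in g3_4 and at 4.8 in g2_1, and MMRN1 and LAPTM4B were at 4.23 to 4.26 and 4.16 to 4.29. The other 11 genes of the score did not pass.

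**Figure D3:**
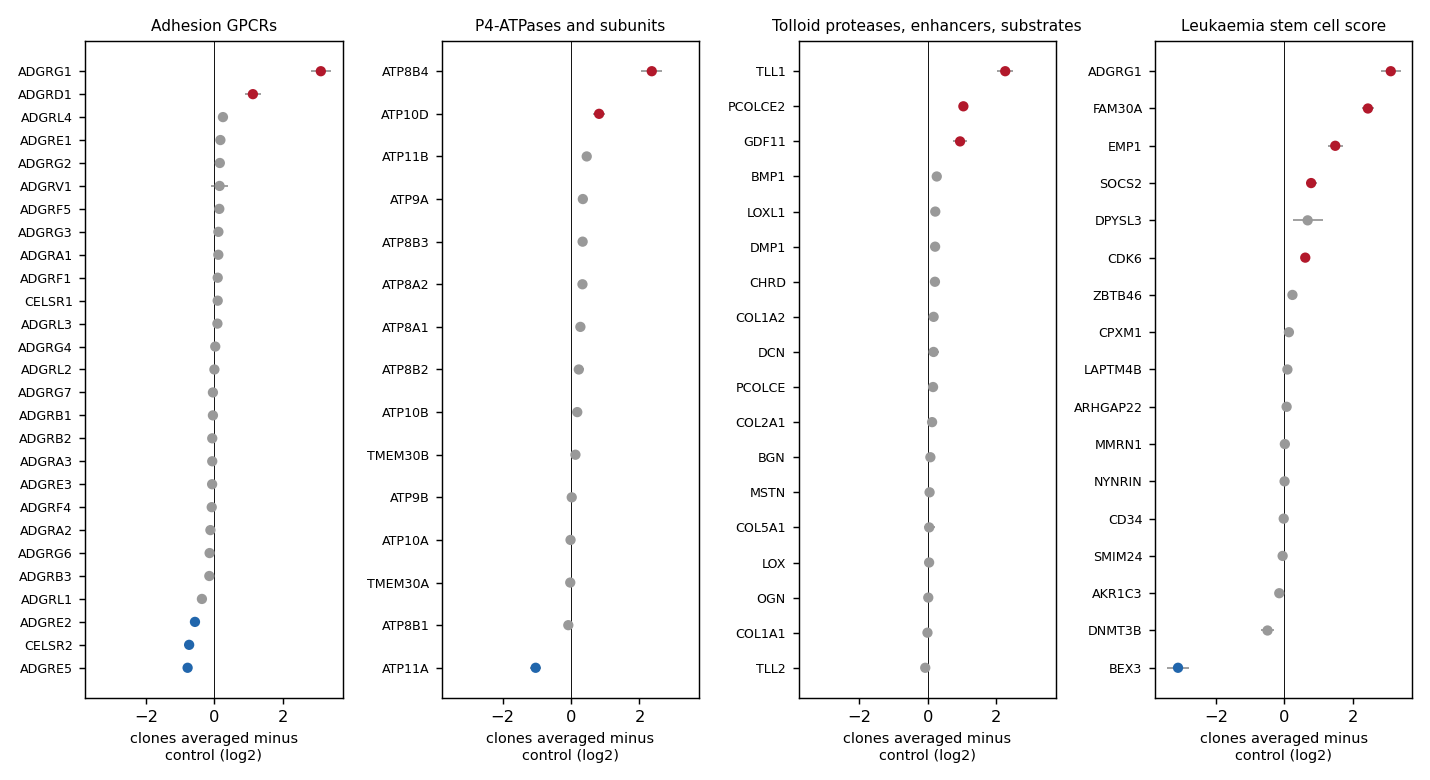
Log2 change of the clones averaged against control for each measured gene of 4 lists, with the moderated SE as bars; red points rose and blue points fell in both clones, and grey points did not pass. ADGRG1, ATP8B4 and TLL1 lead their family lists, and ADGRG1 and FAM30A lead the leukaemia stem cell score, which their choice for large rises makes likely. In that score BEX3 lies at -3.11. Most other genes of the lists lie near 0.

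Since ADGRG1 marks cytotoxic lymphocytes and FAM30A B cells and progenitors, markers of these and other cells are given beside them. Of 15 cytotoxic markers, PRF1 (perforin) rose from 10.37 to 11.61 in g2_1 and 11.41 in g3_4 and GZMB (granzyme B) rose from 8.26 to 9.20 and 9.14, while the transcription factor gene EOMES fell by 2.63; the average level over the list was 5.89 to 6.03 on control arrays and 5.97 to 6.0 on clone arrays. GNLY, KLRD1 and CX3CR1 were at 4.46, 3.86 and 4.25 in control cells and at most 4.68 in a clone, whereas NKG7, a gene of cytotoxic granules, was at 10.32 in controls, 10.88 in g2_1 and 10.74 in g3_4, and the transcription factor gene TBX21 at 6.75, 6.82 and 6.74; none of these 5 passed. Of 10 T cell markers, CD2, CD247 and CD4 rose by 1.56, 1.20 and 1.04 and 0 fell. The list averaged 5.59 to 5.96 on control arrays and 6.18 to 6.31 on clone arrays. These ranges do not overlap, but the same held for several other lists, among them the Hodgkin line markers, which averaged lower on the clone arrays. The defining genes CD3D, CD3E and CD3G were at 4.03 to 4.88 in every group and did not pass.

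Of 14 B cell markers, EBF1 and BLK rose, by 1.25 and 0.89, and POU2AF1, CD37 and PAX5 fell; the rise of EBF1 was lost without any 1 clone array and that of BLK without any of 5 clone arrays or control array 3 (limma adjusted p up to 0.0949). The list averaged 6.30 to 6.32 on control arrays and 6.11 to 6.32 on clone arrays. Of 12 Hodgkin line markers, TNFRSF8 rose by 0.74, and GATA3, CCL22 and BATF3 fell by 1.46, 1.18 and 0.40, of which BATF3 passed only without control array 3 among the single arrays and not with arrays centred (limma adjusted p up to 0.204 over the alternatives). With arrays centred TRAF1 and JUNB rose too. That list averaged 9.73 to 9.91 on control arrays and 9.57 to 9.71 on clone arrays. Of 11 myeloid markers 0 rose and 0 fell, with an average of 5.03 to 5.11 and 4.96 to 5.14, and of 8 fibroblast markers FAP fell by 1.99, with an average of 5.33 to 5.70 and 5.19 to 5.36. The part of other cell types in the values of the 4 genes was not tested.

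Most genes beside the 4 on their chromosomes did not pass. Of the 20 measured genes nearest to ADGRG1, 10 on each side, DOK4, an adaptor of receptor tyrosine kinases, rose by 0.89, and CCL22 and CSNK2A2 fell by 1.18 and 0.37, with a median of -0.01; CSNK2A2 passed without array 3 of g3_4 or control array 1 or 2, not without any other and not with arrays centred (limma adjusted p up to 0.0839). With arrays centred CCDC102A, the nearest measured gene before ADGRG1 in RefSeq order, rose too. CCL17, a chemokine gene of this stretch that is known from Hodgkin cells, had a value of -0.95 (SE 0.25) and did not pass in g2_1. Of 11 measured neighbours of FAM30A, which lies near the end of chromosome 14, 0 rose and 0 fell, with a median of 0.06 and with values of 0.65 (SE 0.16) for CRIP1 and 0.40 (SE 0.10) for TMEM121, which both rose with arrays centred. No immunoglobulin gene is among these 11, so the immunoglobulin genes of its locus are not covered.

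Of the 20 neighbours of ATP8B4, CEP152, a centriole gene, and the adjacent SLC27A2, a fatty acid transporter and acyl-CoA synthetase gene, had changes of 0.54 and 0.80, and CYP19A1, which encodes aromatase, fell by 1.89, with a median of -0.02. CEP152 passed without control array 2 or 3 and not without any other single array, and SLC27A2 was lost without array 2 or 3 of g2_1 or any array of g3_4 (limma adjusted p up to 0.139 and 0.120). With arrays centred EID1 and SECISBP2L rose too. HDC, the next measured gene after SLC27A2, had a change of 0.04 (SE 0.08). Of the 20 neighbours of TLL1, PALLD, which encodes the actin-associated protein palladin, averaged 6.85 ± 0.52 in controls, 9.21 ± 0.03 in g2_1 and 8.40 ± 0.07 in g3_4 (SD, n = 3), an averaged rise of 1.95 (SE 0.18), and SH3RF1 had a change of 0.67 (SE 0.15) that passed without array 1 of g3_4 or control array 3 and not without any other single array (limma adjusted p up to 0.182). The measured genes next to TLL1 on either side, CPE and SPOCK3, had values of -0.05 (SE 0.12) and 0.04 (SE 0.16), and 0 of the 20 fell. The median was 0.04.

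**Figure D4:**
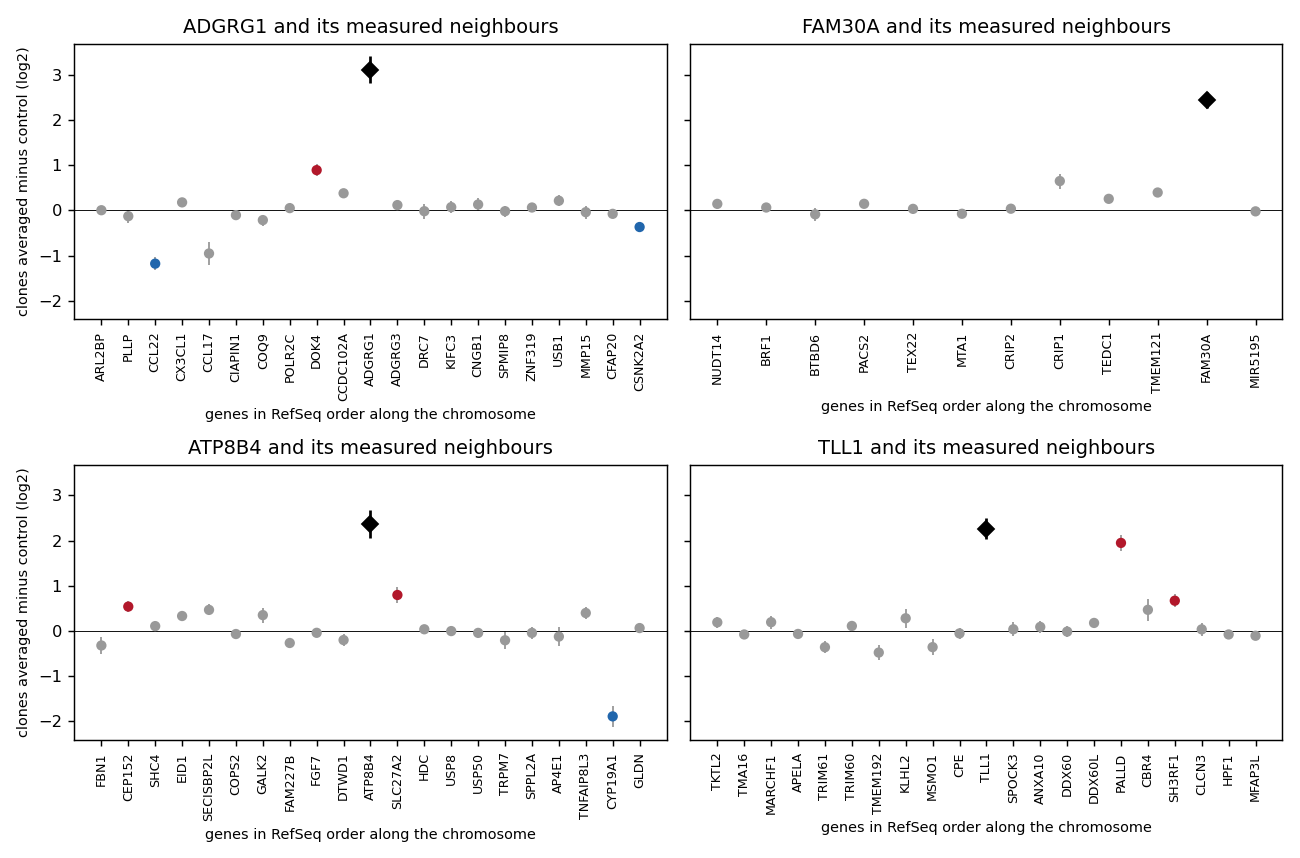
Log2 change of the clones averaged against control, with the moderated SE, for each of the 4 genes (black diamond) and up to 10 measured genes on each side in RefSeq order along the chromosome; red rose, blue fell and grey did not pass in both clones. The 4 genes stand above their neighbours in the averaged change, which their choice for large rises makes likely. PALLD at 1.95 is the highest neighbour, and in g2_1 alone its change of 2.35 was above that of TLL1, 2.06.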

How the data were processed

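RNA (250 ng a sample) of L-1236 cells was measured on 9 human Clariom S arrays. The deposited values are log2 signals; the submitters' processing notes name RMA and Transcriptome Analysis Console 4.0, and the genome build is not given in the sources used here. Of 21448 rows, 20893 with transcript cluster IDs were tested and 555 with unmapped IDs were left out. The platform annotation gave 17705 rows 1 symbol each, all matched by gene ID to RefSeq (GRCh38.p14), used for names, gene order and start regions. limma 3.58.1 in R 4.3.3 was fitted to all 9 arrays (lmFit and eBayes, 1 coefficient a group, two-sided), with Benjamini-Hochberg adjustment over all tested rows, and was tested on simulated data. The precision is limited by the number of arrays. The members, gene lists and alternatives were chosen with earlier results of these data known. Named genes were the members, LTA, genes of each list and up to 3 neighbours in a direction that passed, and the 3 genes most like each member; other genes of the lists are given as values, those of the marker and pathway lists chosen after their values were seen. The alternatives were other scalings, row filters, pairing, variance models, weights and left-out arrays.

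Array numbers paired the clones: deviations from the group means of same-numbered arrays correlated at 0.435, 0.191 and 0.310 between g2_1 and g3_4. Clone arrays of unlike numbers correlated at -0.346 to 0.0775. Against control, same-numbered arrays correlated at 0.285, 0.0426 and 0.183 for g2_1 and 0.298, 0.0565 and 0.257 for g3_4. Array 2 of g2_1 and array 2 of g3_4 correlated more with control array 3 (0.109 and 0.0993). The pairing with control is thus partial and no block was used in the reported fit.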

Additional observations from a re-analysis of the deposited data

How the results depend on the processing

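Changes of the 4 genes against control kept their direction under all 17 alternatives. Without single arrays they ran from 2.94 to 3.53 in g2_1 and 2.60 to 3.23 in g3_4 for ADGRG1, 1.72 to 2.10 and 2.83 to 3.21 for FAM30A, 1.70 to 2.64 and 2.11 to 3.05 for ATP8B4, and 1.77 to 2.32 and 2.19 to 2.65 for TLL1.

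Between the clones, the difference of ADGRG1 turned to -0.042 without array 1 of g2_1 (range without single arrays -0.042 to 0.64). That of FAM30A ran from -1.21 to -0.93 without single arrays and passed at -1.11 in a fit of the clones alone and at -1.15 with array weights. The number of transcript clusters called between the clones was 11 as reported and 27 with the replicate block, 29 without the arrays numbered 1, 32 in a fit of the clones alone, 50 with array weights and 4 to 45 without single arrays. It was 4 to 7 without array 2 or 3 of g2_1, any array of g3_4 or control array 3, and 45 without control array 1. The cause was not tested. The block changed no call of the 4 genes.

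The number risen in both clones was 935 as reported, 1749 with arrays centred on their median and 611 to 999 without single arrays, the lowest without array 2 of g3_4. Of 578 recomputed counts of list genes and neighbours, 502 stayed within 1.5 times, 54 were lower and 22 higher. Of the 555 rows with unmapped IDs, 0 were higher in both clones by at least 1 log2 unit in limma and 4 were lower. Values near the first quartile of the arrays are bounded by the floor.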
